A study of Caenorhabditis elegans with 12 samples.

Results

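The interaction of hda-1 RNAi with atp-2 RNAi was examined gene by gene, to ask which genes respond to mitochondrial stress differently in worms fed a clone against hda-1. For each gene the log2 ratio of atp-2 RNAi over none on the empty vector L4440 was subtracted from the same ratio under the hda-1 RNAi label. Levels are in FPKM, fragments counted on a gene relative to its length in kilobases and to the depth of the library. Genes with a mean FPKM of 1 or more over the 6 deposited columns were kept, and a difference of 1 or more in size, which is 2-fold on the log2(FPKM + 1) scale, made a gene a member. There were 639 members (4.79%) among the 13337 kept genes, of 46245 genes in the table. The difference was positive in 220 members and negative in 419.

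The groups used were hda-1 RNAi with atp-2 RNAi, hda-1 RNAi alone, L4440 with atp-2 RNAi, and L4440 alone, and the dve-1 RNAi columns with and without atp-2 RNAi were read beside them. All worms were whole animals of the strain glp-4(bn2), whose temperature-sensitive mutation limits the germ line, raised from the first larval stage at 20 °C and collected on day 1 of adulthood. Bacteria carrying the atp-2 clone were added 30 h after the start of the first RNAi. Each group had 2 libraries, and the deposited table holds 1 combined value for both, so no spread between replicates exists, no difference below could be tested, and the calls describe sizes in these libraries.

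HDA-1 is a class I histone deacetylase, an enzyme that removes acetyl groups from histone tails, and atp-2 encodes a catalytic subunit of ATP synthase in mitochondria. Loss of a respiratory chain or ATP synthase subunit in the nematode activates the mitochondrial unfolded protein response (UPRmt), in which nuclear genes for mitochondrial chaperones and proteases are transcribed together with genes of detoxification and innate immunity. A difference between the atp-2 ratios of both backgrounds can arise at either end. The stressed level can differ between the backgrounds, or the level before stress can already differ, and these cases were separated for every member. By arithmetic the difference equals the log2 ratio of hda-1 RNAi over L4440 with atp-2 RNAi minus the same ratio without it.

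The targets of the clones come before the members. At position 14525389 to 14527411 of chromosome V, hda-1 stood at 811 FPKM with and 1207 FPKM without atp-2 RNAi under the hda-1 RNAi label, against 21 FPKM with and 18.8 FPKM without it on L4440. A knockdown lowers its target, yet this signal was far above L4440. Whether hda-1 mRNA was reduced cannot be read from these values, so these columns are named by their label throughout and every direction below rests on it. The study also measured endogenous hda-1 mRNA by qRT-PCR in wild-type worms raised on control or hda-1 RNAi, which was not used here. It marks a significant difference between them and cites that measurement where it discusses the efficiency of hda-1 RNAi. The atp-2 gene was at 554 FPKM with and 861 FPKM without atp-2 RNAi under the hda-1 RNAi label, against 598 FPKM with and 1094 FPKM without it on L4440. Its own interaction was 0.24, with a lower value in both columns with atp-2 RNAi. The column sums of FPKM lay between 917209 and 980796. By the depth read from steps between low values, 5 FPKM on 1 kb of exon stood for 80.7 to 93.8 fragments.

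The most frequent pattern was a gene at least 2-fold higher with atp-2 RNAi on L4440 whose ratio stayed short of 2-fold under the hda-1 RNAi label. Of the 419 members with a difference of -1 or less (3.14% of kept genes), 195 had a ratio of 1 or more on L4440 and a ratio of less than 1 in size under the hda-1 RNAi label. In 74 the ratio was -1 or less under the hda-1 RNAi label and less than 1 in size on L4440, 15 had ratios past 1 in opposite directions, 10 were 2-fold higher in both backgrounds by unequal amounts, and in 125 neither ratio reached 1. Of the 220 members with a difference of 1 or more (1.65% of kept genes), 82 had a ratio of 1 or more under the hda-1 RNAi label alone, 67 a ratio of -1 or less on L4440 alone, 10 had opposite directions, 2 were higher in both and 59 had neither ratio past 1. Over all kept genes, 1.06% had a ratio of 1 or more with atp-2 RNAi under the hda-1 RNAi label and 2.58% on L4440, while 0.84% and 0.885% had a ratio of -1 or less. The median difference over all kept genes was -0.04. The difference of every member and its L4440 ratio share the L4440 columns, so their arrangement in the plot of both ratios is partly set by the rule.

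**Figure D1:**
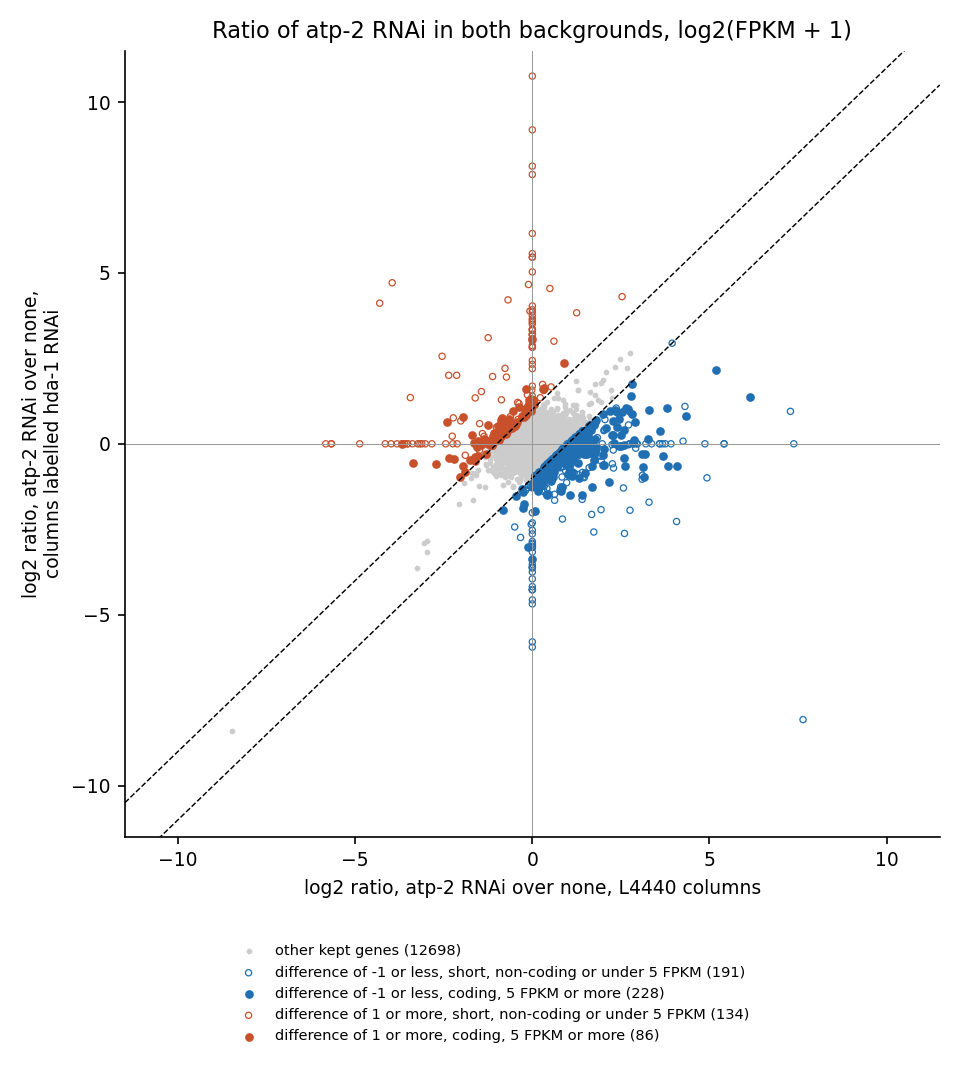
Log2 ratio of atp-2 RNAi over none under the hda-1 RNAi label (vertical axis) against that in the L4440 columns (horizontal axis), each point 1 of 13337 kept genes, with dashed lines at a difference of 1 and -1. Members below the lower line lie mostly to the right of 0, and the open points on the axes are short, non-coding or low genes with a value of 0 in several columns.

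Many members were short or rare transcripts. Of the 437 kept genes with under 300 nt of annotated exon, 203 were members (46.5%), against 431 of 12822 longer genes (3.36%), and 5 members were not in the annotation. Non-coding RNA genes made up 119 members, of 202 kept. The median exon length was 502.5 nt for members and 1330 nt for kept genes, and the median of the mean FPKM was 4.71 against 9.63. The difference was larger than 1.96 times its counting error in 600 of the 639 members, in 173 of the 203 short ones and in 427 of the 431 longer ones. Members were chosen by the size of the difference, so any with a small counting error passes. These counts are thus partly set by the rule and are no test of it. The counting error covers counting alone and says nothing of the spread between cultures. Named genes are therefore taken from the 314 members that are protein-coding, have at least 300 nt of exon and reach 5 FPKM in 1 of the 4 columns, apart from genes named as part of a run or at the edge of the rule. Among the 9534 kept genes of that kind, 86 had a difference of 1 or more (0.902%) and 228 a difference of -1 or less (2.39%).

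The members were then separated by the level at which the backgrounds differed. The level with atp-2 RNAi is called stressed and that without it unstressed, and a level was counted as different when the log2 ratio of hda-1 RNAi over L4440 was 1 or more in size. Of the 419 negative members, 122 differed with atp-2 RNAi but not without it (called stressed only), 144 without but not with it (unstressed only), 23 at both levels in opposite directions (both), 66 at both levels on the same side (same side), and 64 at neither. Of the 220 positive members the counts were 84, 44, 11, 52 and 29. Among the 228 negative coding members they were 62, 65, 10, 55 and 36, and among the 86 positive ones 26, 10, 0, 39 and 11. Among negative members a different level before stress was thus at least as frequent as a different stressed level. Over all kept genes, 13.4% were 2-fold or more higher and 5.2% lower under the hda-1 RNAi label than on L4440 when atp-2 was not targeted. When it was, these shares were 12.9% and 6.76%.

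**Figure D2:**
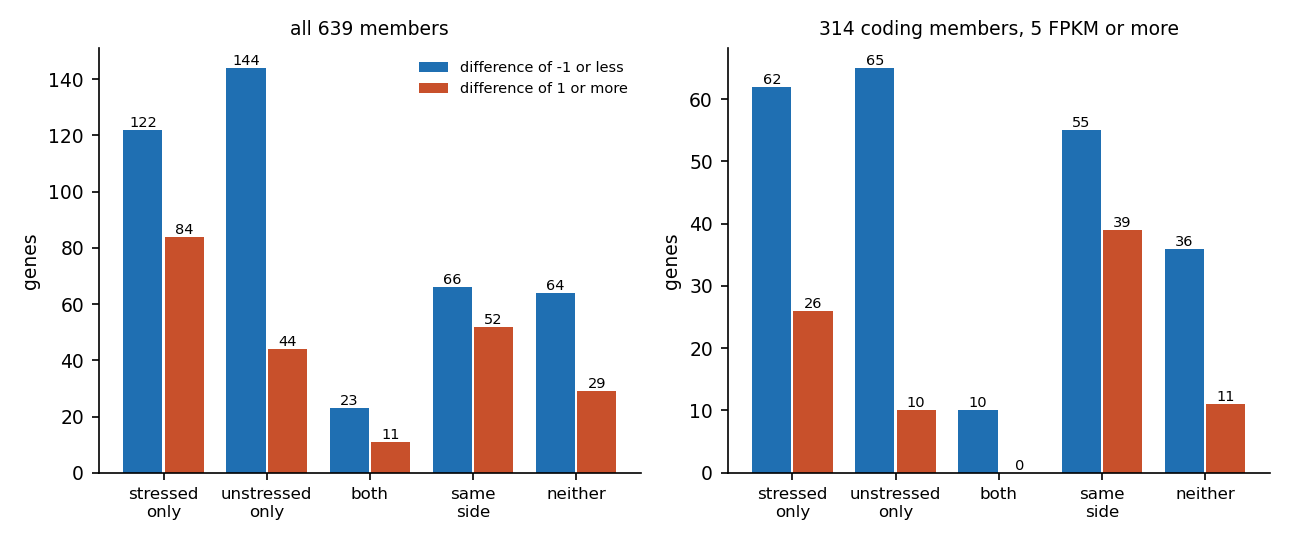
Number of members (vertical axis, genes) per class of level, for all 639 members on the left and the 314 coding members with 5 FPKM or more on the right; blue bars are differences of -1 or less and red bars differences of 1 or more. The bars for stressed only and unstressed only are near equal for negative coding members, at 62 and 65.

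**Figure D3:**
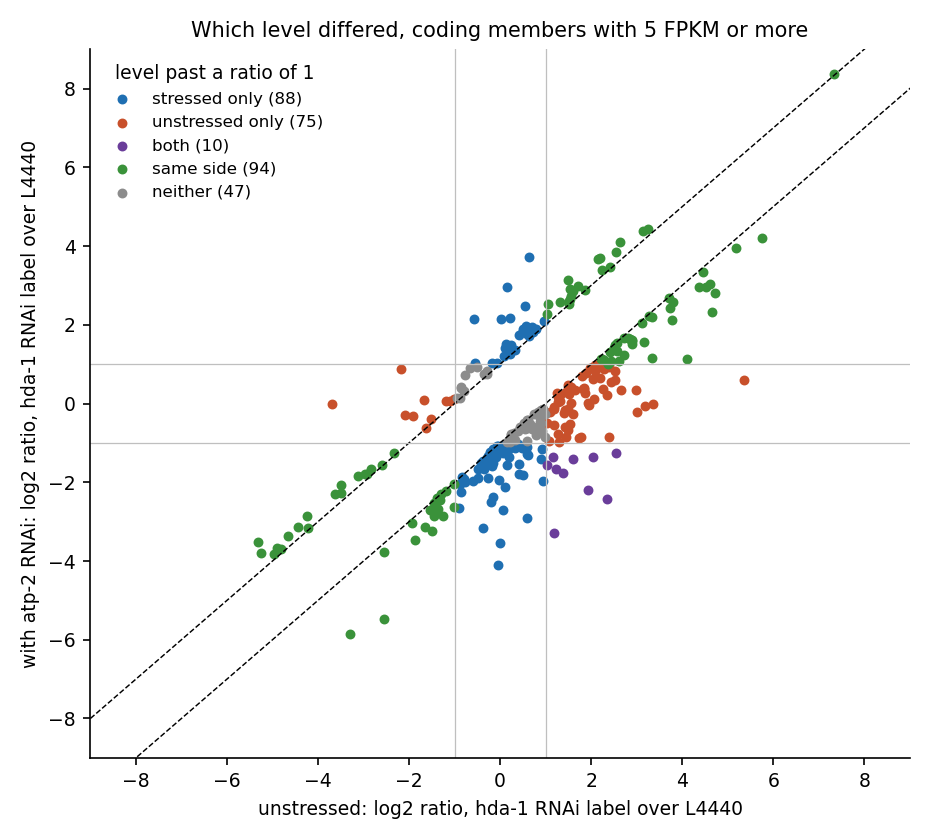
Log2 ratio of hda-1 RNAi label over L4440 with atp-2 RNAi (vertical axis) against the ratio without it (horizontal axis) for the 314 coding members, coloured by class, with dashed lines at a difference of 1 and -1 and grey lines at a ratio of 1 in size. The 94 members of the same side class run along the dashed lines to both ends, and the 10 members of the class both sit at the lower right.

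The 62 negative coding members of the stressed only class were within 2-fold of L4440 before stress and 2-fold or more below it with atp-2 RNAi, and genes of stress defence, proteolysis, transport and mitochondria were among them. Their median levels were 6.35 FPKM with and 11.3 FPKM without atp-2 RNAi under the hda-1 RNAi label, against 19.3 FPKM with and 9.72 FPKM without it on L4440. mff-2, a homologue of the mitochondrial fission factor (chromosome I, 5657917 to 5658712, reverse strand), was at 25.2 FPKM with and 11.7 FPKM without atp-2 RNAi under the hda-1 RNAi label, against 232 FPKM with and 15.6 FPKM without it on L4440. Its L4440 column with atp-2 RNAi stood alone, the other 3 columns lying between 11.7 and 25.2 FPKM, and the difference was -2.77 (counting error 0.17). cdr-4, a cadmium-responsive gene (chromosome V, 12407366 to 12408625, reverse strand), was at 275 FPKM with and 209 FPKM without atp-2 RNAi under the hda-1 RNAi label, against 951 FPKM with and 157 FPKM without it on L4440. The difference was -2.20, and both unstressed columns lay within 2-fold of each other. cpr-5, a cathepsin B-like cysteine protease gene, was at 393 FPKM with and 247 FPKM without atp-2 RNAi under the hda-1 RNAi label, against 856 FPKM with and 177 FPKM without it on L4440. Here the hda-1-labelled column was also higher with atp-2 RNAi than without it, by a log2 ratio of 0.67, against 2.27 on L4440.

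Transport and conjugation genes were among the class as well. pgp-9, an ABC transporter of the P-glycoprotein family, was at 58.8 FPKM with and 47.6 FPKM without atp-2 RNAi under the hda-1 RNAi label, against 152 FPKM with and 50.5 FPKM without it on L4440, a difference of -1.28. ugt-19, a UDP-glycosyltransferase gene, was at 39.5 FPKM with and 19.6 FPKM without atp-2 RNAi under the hda-1 RNAi label, against 158 FPKM with and 30.3 FPKM without it on L4440, a difference of -1.36. The glutathione S-transferase gene gst-15 had a difference of -1.70 and the omega-class gene gsto-1 of -1.61. In each of these genes the highest of the 4 columns was L4440 with atp-2 RNAi.

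Secreted and lipid-related genes followed. ttr-25, of the transthyretin-related family, was at 187 FPKM with and 217 FPKM without atp-2 RNAi under the hda-1 RNAi label, against 421 FPKM with and 194 FPKM without it on L4440, a difference of -1.33. spp-23, a saposin-like gene, was at 263 FPKM with and 267 FPKM without atp-2 RNAi under the hda-1 RNAi label, against 628 FPKM with and 257 FPKM without it on L4440, a difference of -1.31. ipla-3, a phospholipase A2 gene, had a difference of -1.09 and nhr-115, a nuclear hormone receptor gene, of -1.08. stl-1, a stomatin-like gene named after its values were seen, was at 33.2 FPKM with and 17.6 FPKM without atp-2 RNAi under the hda-1 RNAi label, against 131 FPKM with and 18 FPKM without it on L4440. With a pseudocount of 1 FPKM the largest differences of the class belonged to D1086.9 (-4.06), F22B3.7 (-3.54), the small heat shock gene F08H9.4 (-3.48) and F55B12.10 (-2.92), an order that changed with 0.1 and with 5 FPKM. F08H9.4 was at 6.23 FPKM with and 7.9 FPKM without atp-2 RNAi under the hda-1 RNAi label, against 52.9 FPKM with and 4.92 FPKM without it on L4440, so that 1 of 4 columns carried its value. F22B3.7 was listed at 0 in both columns without atp-2 RNAi, at 19.2 FPKM with it on L4440 and at 0.744 FPKM with it under the hda-1 RNAi label.

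In the 65 negative coding members of the unstressed only class, the level before stress was already higher under the hda-1 RNAi label, and the stressed levels were within 2-fold of each other. Their medians were 14.1 FPKM with and 15.5 FPKM without atp-2 RNAi under the hda-1 RNAi label, against 11.9 FPKM with and 3.38 FPKM without it on L4440. hsp-70, a heat-inducible cytosolic Hsp70 (chromosome I, 9320325 to 9322519, reverse strand), was at 132 FPKM with and 131 FPKM without atp-2 RNAi under the hda-1 RNAi label, against 102 FPKM with and 35.7 FPKM without it on L4440. Of the 4 columns only L4440 without atp-2 RNAi was low, and the difference was -1.48 (counting error 0.06). cyp-13A5, a cytochrome P450 gene (chromosome II, 9798277 to 9800362, reverse strand), was at 63.3 FPKM with and 52.5 FPKM without atp-2 RNAi under the hda-1 RNAi label, against 64.7 FPKM with and 12.7 FPKM without it on L4440, and ugt-21 was at 27.3 FPKM with and 25.3 FPKM without atp-2 RNAi under the hda-1 RNAi label, against 27.3 FPKM with and 7.92 FPKM without it on L4440. For both genes the stressed levels differed by less than 0.04 in log2 between the backgrounds.

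Other members of this class were genes of conjugation, signalling and transcription. The glutathione S-transferase gene gst-20 was at 99.5 FPKM with and 130.2 FPKM without atp-2 RNAi under the hda-1 RNAi label, against 75 FPKM with and 35.7 FPKM without it on L4440, a difference of -1.43. ins-7, an insulin-like peptide gene, was at 66.5 FPKM with and 61.4 FPKM without atp-2 RNAi under the hda-1 RNAi label, against 33.4 FPKM with and 13.6 FPKM without it on L4440, a difference of -1.12. klf-3, a Krüppel-like transcription factor gene, was at 14.1 FPKM with and 11.3 FPKM without atp-2 RNAi under the hda-1 RNAi label, against 11.9 FPKM with and 3.96 FPKM without it on L4440, a difference of -1.08. pals-6, of a family known for the intracellular pathogen response, was at 16.1 FPKM with and 25.1 FPKM without atp-2 RNAi under the hda-1 RNAi label, against 12.4 FPKM with and 2.3 FPKM without it on L4440, a difference of -2.63. In these 4 genes the L4440 column without atp-2 RNAi was the lowest of the 4 columns.

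With a pseudocount of 1 FPKM, though not with 0.1 FPKM, the largest difference of the class was that of clc-11, a claudin-like gene (chromosome V, 16138760 to 16139629, reverse strand), at 44.5 FPKM with and 71.1 FPKM without atp-2 RNAi under the hda-1 RNAi label, against 29 FPKM with and 0.755 FPKM without it on L4440. The L4440 column without atp-2 RNAi was below 1 FPKM while the other 3 lay between 29 and 71.1 FPKM, a difference of -4.76. asp-8, an aspartyl protease gene, was at 57.6 FPKM with and 36.8 FPKM without atp-2 RNAi under the hda-1 RNAi label, against 113 FPKM with and 14.4 FPKM without it on L4440, a difference of -2.26. Here the ratio of hda-1 RNAi over L4440 was 1.30 without and -0.96 with atp-2 RNAi, close to the line between classes. F09B12.7 had a value under the hda-1 RNAi label alone, 9.26 FPKM, and was listed at 0 in the other 3.

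Both levels differed, in opposite directions, in 10 negative coding members. They were higher under the hda-1 RNAi label before stress and lower with atp-2 RNAi, and they included the largest difference of all 314 with a pseudocount of 1 FPKM, an order that changed with 0.1 FPKM. B0205.14 (chromosome I, 10726088 to 10727386, forward strand) was at 50.2 FPKM with and 18.6 FPKM without atp-2 RNAi under the hda-1 RNAi label, against 271 FPKM with and 2.84 FPKM without it on L4440, a difference of -4.77. The column with atp-2 RNAi was the higher one in both backgrounds, by a log2 ratio of 1.38 under the hda-1 RNAi label and 6.15 on L4440. B0205.13, named after its values were seen, lies beside it and was a stressed only member at 164 FPKM with and 82.3 FPKM without atp-2 RNAi under the hda-1 RNAi label, against 578 FPKM with and 57.6 FPKM without it on L4440. cyp-33C8, a cytochrome P450 gene that the study followed by qPCR, was at 126 FPKM with and 133 FPKM without atp-2 RNAi under the hda-1 RNAi label, against 372 FPKM with and 65.3 FPKM without it on L4440. Its levels under the hda-1 RNAi label were near equal and lay between both L4440 levels, a difference of -2.57. cyp-14A4 was at 22.8 FPKM with and 4.3 FPKM without atp-2 RNAi under the hda-1 RNAi label, against 62.5 FPKM with and 0.739 FPKM without it on L4440, a difference of -3.02. T23F2.4 was at 15.7 FPKM with and 25.9 FPKM without atp-2 RNAi under the hda-1 RNAi label, against 39.2 FPKM with and 3.64 FPKM without it on L4440, and C54F6.18 at 9.8 FPKM with and 20.1 FPKM without atp-2 RNAi under the hda-1 RNAi label, against 48.1 FPKM with and 4.52 FPKM without it on L4440. In both genes the hda-1 RNAi label came with a higher unstressed level and a stressed level below that of L4440.

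**Figure D4:**
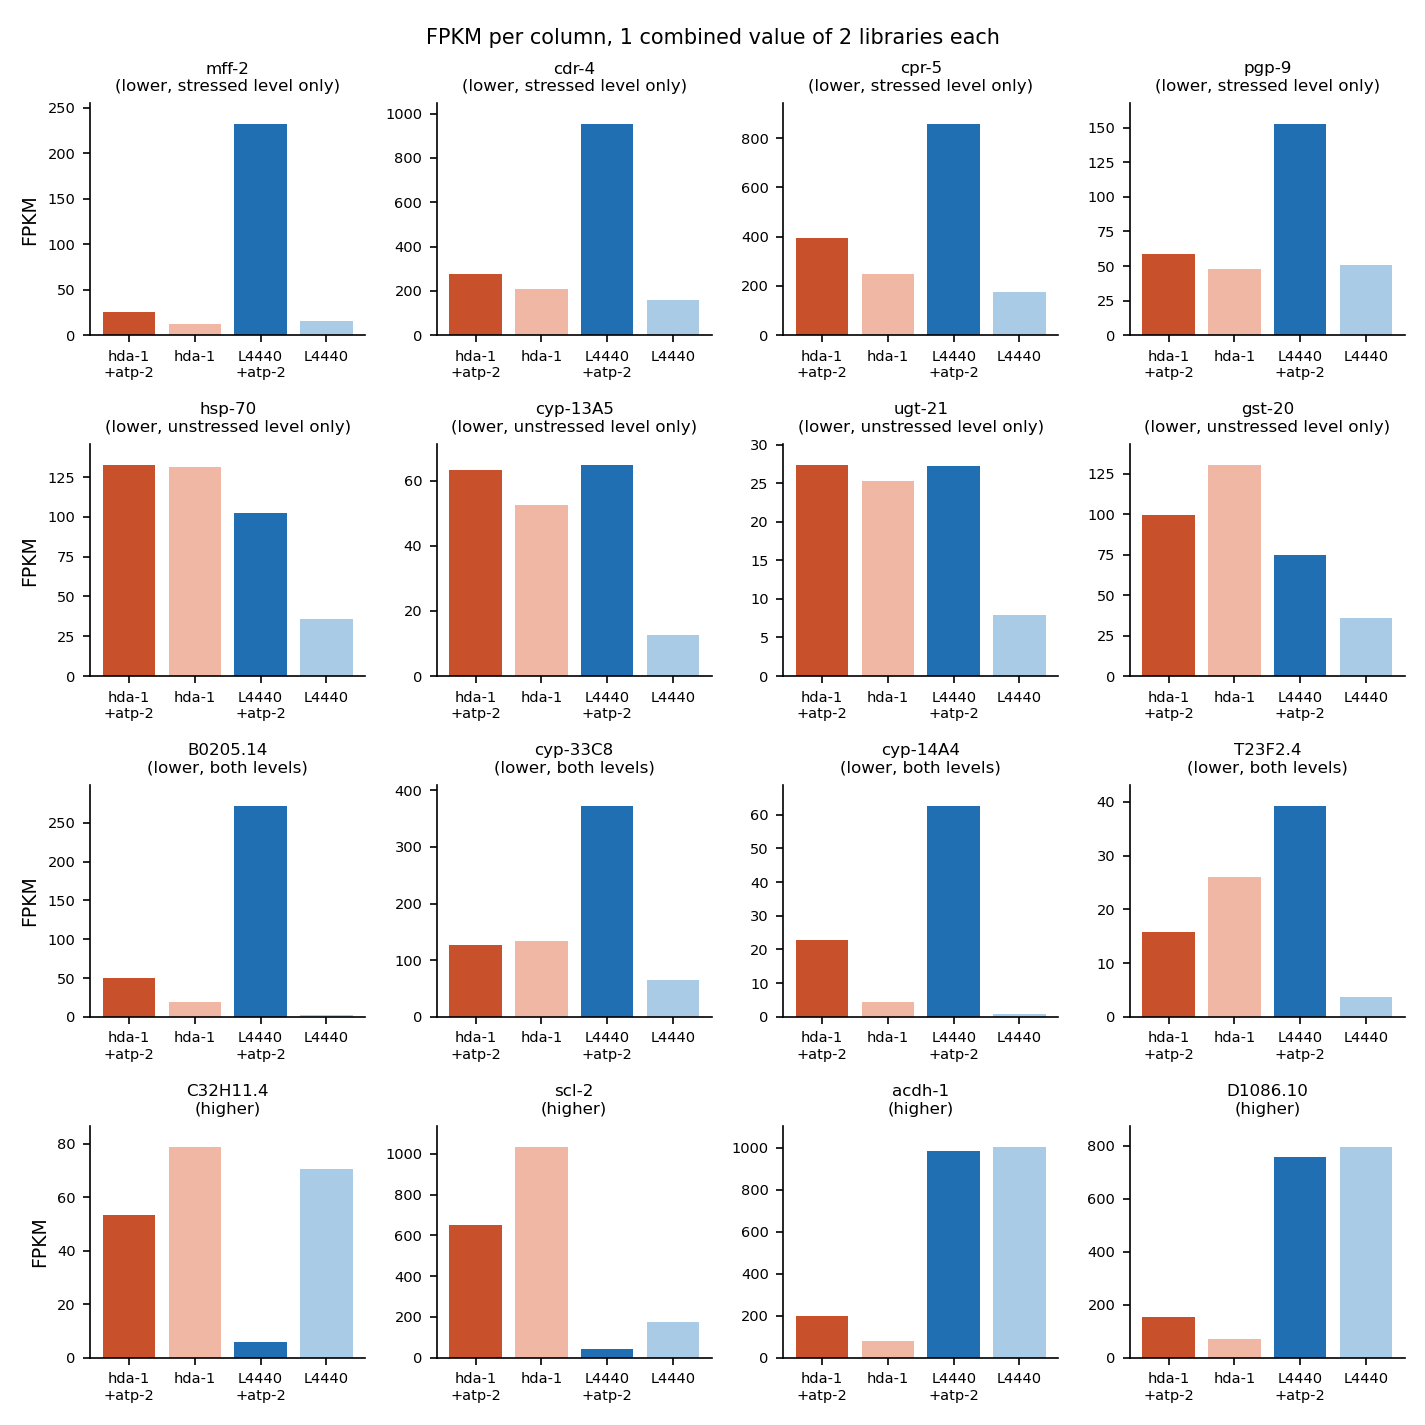
FPKM (vertical axis of each panel, from 0) of 16 members in the columns hda-1 RNAi label with atp-2 RNAi, hda-1 RNAi label, L4440 with atp-2 RNAi and L4440; each bar is the authors' 1 combined value of 2 libraries, with no error. In the top row L4440 with atp-2 RNAi stands above the other 3 bars, and in the second row L4440 without atp-2 RNAi stands below them.

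A further 55 negative coding members lay on the same side of L4440 at both levels. In 36 of them both levels were higher with the hda-1 RNAi label, with a median log2 ratio of 3.01 without and 1.62 with atp-2 RNAi. T16G1.7 was at 22.1 FPKM with and 29.9 FPKM without atp-2 RNAi under the hda-1 RNAi label, against 9.63 FPKM with and 0.784 FPKM without it on L4440, and the infection response gene irg-5 was at 1715 FPKM with and 1865 FPKM without atp-2 RNAi under the hda-1 RNAi label, against 315 FPKM with and 139.7 FPKM without it on L4440. For irg-5 the hda-1-labelled columns differed from each other by a log2 ratio of -0.12 and the L4440 columns by 1.17. In the other 19 both levels were lower with the hda-1 RNAi label, with a median log2 ratio of -1.44 without and -2.76 with atp-2 RNAi. These included defence genes. sod-3, a mitochondrial superoxide dismutase gene named after its values were seen, was at 29.5 FPKM with and 36.2 FPKM without atp-2 RNAi under the hda-1 RNAi label, against 288 FPKM with and 103 FPKM without it on L4440, a difference of -1.76. mtl-1, a metallothionein gene, was at 95.9 FPKM with and 354 FPKM without atp-2 RNAi under the hda-1 RNAi label, against 1078 FPKM with and 1296 FPKM without it on L4440, a difference of -1.61. hsp-12.6, a small heat shock gene, was at 5.67 FPKM with and 13.1 FPKM without atp-2 RNAi under the hda-1 RNAi label, against 47.7 FPKM with and 32.7 FPKM without it on L4440, a difference of -1.61. mtl-1 and hsp-12.6 met the rule through a lower level with atp-2 RNAi under the hda-1 RNAi label, their L4440 ratios being -0.27 and 0.53.

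Positive differences were fewer among the coding members, and 39 of the 86 were of the same side class. In 18 of these, both levels were far lower with the hda-1 RNAi label, with a median log2 ratio of -3.92 without and -2.57 with atp-2 RNAi. Within the hda-1 RNAi label the level with atp-2 RNAi was the higher one in 15 of the 18, in 13 of them by a log2 ratio of 1 or more. acdh-1, an acyl-CoA dehydrogenase gene (chromosome I, 6497436 to 6499560, forward strand), was at 201 FPKM with and 80.7 FPKM without atp-2 RNAi under the hda-1 RNAi label, against 984 FPKM with and 1002 FPKM without it on L4440, a difference of 1.33. D1086.10 was at 155 FPKM with and 69.4 FPKM without atp-2 RNAi under the hda-1 RNAi label, against 757 FPKM with and 795 FPKM without it on L4440, a difference of 1.22, and T12B5.15 was at 23 FPKM with and 6.87 FPKM without atp-2 RNAi under the hda-1 RNAi label, against 276 FPKM with and 312 FPKM without it on L4440, a difference of 1.79. The uterine lumen gene ule-1 and the folate transporter gene folt-2, both named after their values were seen, were at 116 FPKM with and 46.7 FPKM without atp-2 RNAi under the hda-1 RNAi label, against 845 FPKM with and 901 FPKM without it on L4440 and at 122 FPKM with and 53.4 FPKM without atp-2 RNAi under the hda-1 RNAi label, against 441 FPKM with and 475 FPKM without it on L4440. In all 5 genes the L4440 columns differed by less than 0.2 in log2 and stood above both hda-1-labelled columns.

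In the other 21 same side members with a positive difference, both levels were higher with the hda-1 RNAi label, with a median log2 ratio of 1.71 without and 2.99 with atp-2 RNAi. scl-2, a gene of the SCP-like extracellular proteins, was at 652 FPKM with and 1033 FPKM without atp-2 RNAi under the hda-1 RNAi label, against 44.3 FPKM with and 177 FPKM without it on L4440, a difference of 1.31. cnc-4, a caenacin antimicrobial peptide gene, was at 301 FPKM with and 289 FPKM without atp-2 RNAi under the hda-1 RNAi label, against 61.6 FPKM with and 141 FPKM without it on L4440, a difference of 1.24, and ilys-5, a lysozyme gene named after its values were seen, was at 1333 FPKM with and 1717 FPKM without atp-2 RNAi under the hda-1 RNAi label, against 200.2 FPKM with and 583 FPKM without it on L4440. clec-218, a C-type lectin gene, had a difference of 1.28. The L4440 column with atp-2 RNAi was the lowest of the 4 in each of these genes.

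The stressed only class held 26 positive coding members, with medians of 8.35 FPKM with and 7.33 FPKM without atp-2 RNAi under the hda-1 RNAi label, against 2 FPKM with and 5.68 FPKM without it on L4440. C32H11.4 (chromosome IV, 12921264 to 12923296, forward strand) was at 53.5 FPKM with and 78.8 FPKM without atp-2 RNAi under the hda-1 RNAi label, against 5.99 FPKM with and 70.6 FPKM without it on L4440, a difference of 2.81. C06E4.3 was at 17.9 FPKM with and 10.1 FPKM without atp-2 RNAi under the hda-1 RNAi label, against 3.28 FPKM with and 15.5 FPKM without it on L4440, a difference of 2.72. ugt-32 had a difference of 1.96, and lipl-3, a lysosomal lipase gene, was at 6.46 FPKM with and 9.31 FPKM without atp-2 RNAi under the hda-1 RNAi label, against 1.71 FPKM with and 8.18 FPKM without it on L4440. In these 4 genes L4440 with atp-2 RNAi was the low column. Of the 10 positive coding members of the unstressed only class, ZK616.3 was at 8 FPKM with and 5.09 FPKM without atp-2 RNAi under the hda-1 RNAi label, against 9.96 FPKM with and 25 FPKM without it on L4440, C49H3.12 at 5.75 FPKM with and 8.16 FPKM without atp-2 RNAi under the hda-1 RNAi label, against 5.31 FPKM with and 28.3 FPKM without it on L4440 and C09B8.4 at 14.9 FPKM with and 14.2 FPKM without atp-2 RNAi under the hda-1 RNAi label, against 18.8 FPKM with and 56 FPKM without it on L4440. L4440 without atp-2 RNAi was the high column in all 3. acdh-2, another acyl-CoA dehydrogenase gene with a positive difference (1.44), differed 2-fold at neither level, at 19.8 FPKM with and 18.2 FPKM without atp-2 RNAi under the hda-1 RNAi label, against 9.92 FPKM with and 26.4 FPKM without it on L4440.

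Single columns carried many of these differences. Among the 62 negative coding members of the stressed only class, L4440 with atp-2 RNAi was the column furthest from the median of the other 3 in 48, and hda-1 RNAi with atp-2 RNAi in 14. Among the 65 of the unstressed only class, it was L4440 without atp-2 RNAi in 51 and the hda-1-labelled column in 14. Across all 6 columns, the dve-1 RNAi ones included, L4440 without atp-2 RNAi was the lowest in 36 of those 65 (55.4%), against 35% of all kept coding genes of that level. L4440 with atp-2 RNAi was the highest of the 6 in 45 of the 62 (72.6%), against 16% of those genes. The rule itself favours such an order, and how far the 2 libraries behind a column agreed cannot be seen in a combined value.

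Gene families were described by counts, beside the 3.14% of all kept genes with a difference of -1 or less and the 1.65% with 1 or more. The 64 kept cytochrome P450 genes, enzymes of oxidation and detoxification, held 12 negative members and no positive one, with a median difference of -0.26. Of the 12, 5 were unstressed only, 2 both, 2 same side, 2 neither and 1 stressed only. The 40 glutathione S-transferase genes held 5 negative and no positive members, and the 56 UDP-glycosyltransferase genes 5 negative and 4 positive. Of 19 cytosolic heat shock genes 7 were negative, with a median of -0.46, and of 8 metallothionein and cdr genes 3 were (mtl-1, cdr-3 and cdr-4). The 22 cysteine and aspartyl protease genes held 3 (cpr-5, asp-8 and cpr-8) and the 31 pals genes held 3, with a median of -0.50. The 107 collagen genes, which build the cuticle, held 11 negative members and 1 positive one, and 7 of the 11 were of the same side class. Of the 11, col-36 was at 25.3 FPKM with and 50.7 FPKM without atp-2 RNAi under the hda-1 RNAi label, against 0.695 FPKM with and 0.419 FPKM without it on L4440 and col-107 at 50.3 FPKM with and 83.9 FPKM without atp-2 RNAi under the hda-1 RNAi label, against 4.03 FPKM with and 2.84 FPKM without it on L4440, both well above L4440 at both levels.

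Neuropeptide genes held more positive than negative members, and lectin genes held both. The 129 neuropeptide genes held 7 positive and 2 negative members, with nlp-79 (-1.91), ins-7 (-1.12), ins-19 (1.14) and ins-29 (1.26) among the coding members with 5 FPKM. Of these, ins-19 was listed at 0 in both hda-1-labelled columns. The 98 C-type lectin genes held 4 positive and 3 negative members, and the 74 antimicrobial genes 3 and 4. The 171 nuclear hormone receptor genes held 4 negative members (2.34%) and the 122 F-box genes 5 (4.10%). Both shares were below the 4.79% of all kept genes that were members. No member was found among the 66 mitochondrial ribosomal protein, 33 aminoacyl-tRNA synthetase, 62 oxidative phosphorylation, 80 cytosolic ribosomal, 33 proteasome and 6 vitellogenin genes. At a share of 4.79% over all kept genes, the absence of members from the smaller of these lists carries little weight. The 6 vitellogenin genes, for yolk proteins, had a median difference of 0.41.

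**Figure D5:**
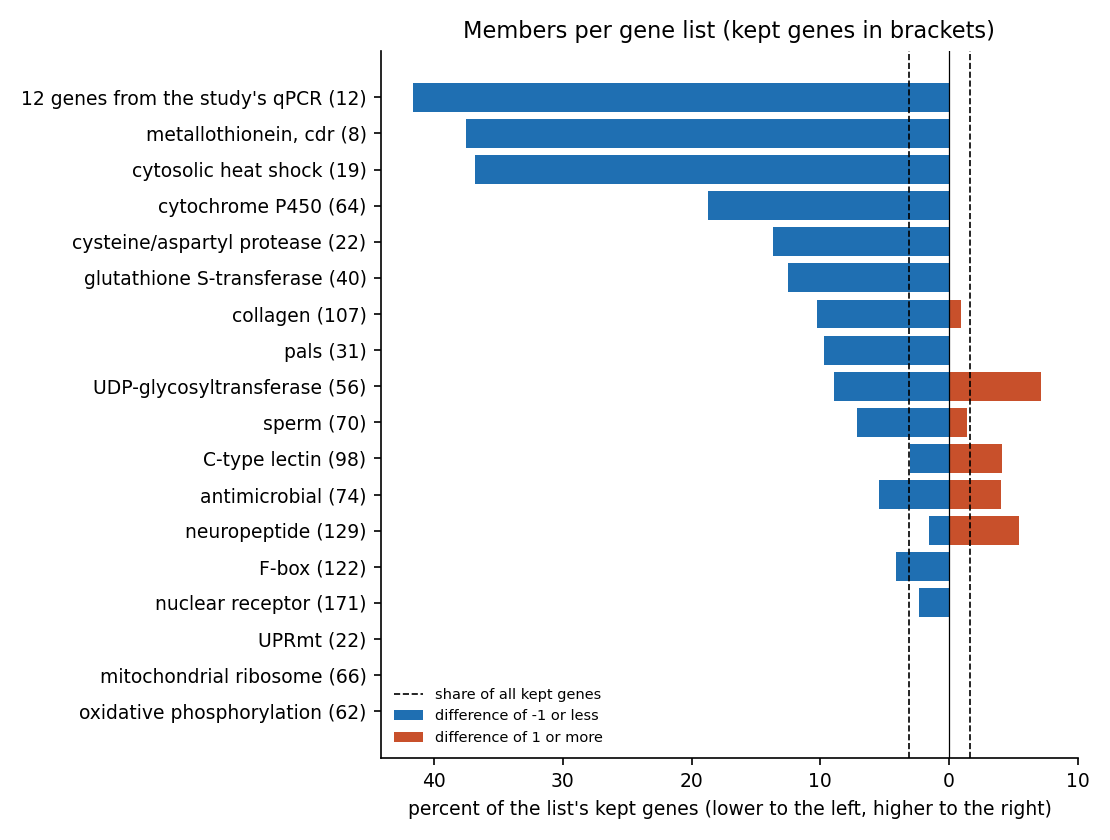
Members as a percent of the kept genes of each list (horizontal axis), negative differences to the left in blue and positive to the right in red, with the number of kept genes in brackets and dashed lines at the shares of all kept genes (3.14% and 1.65%). The list of qPCR genes was, apart from hsp-6, chosen by the study on these samples, and UPRmt has no bar.

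None of the 22 kept UPRmt genes met the rule, yet their differences leaned to one side. Of them 20 were below 0, the median was -0.42 against -0.04 for all kept genes, and the range was -0.87 to 0.10. Other lists leaned the same way, with 29 of 33 aminoacyl-tRNA synthetase and 50 of 66 mitochondrial ribosomal protein genes below 0. So did 28 of 31 pals and 17 of 19 heat shock genes, against 4 of 80 cytosolic ribosomal genes. The share of all kept genes below 0 was not computed. Their median was itself below 0, and it was 0.03 after upper-quartile scaling, so these counts are not set against an even split. The median difference was only -0.18 for the aminoacyl-tRNA synthetase and -0.15 for the mitochondrial ribosomal protein genes. The UPRmt genes had a median log2 ratio with atp-2 RNAi of 0.80 on L4440 and 0.30 under the hda-1 RNAi label. A UPRmt gene with an L4440 ratio below 1 cannot meet the rule by losing its rise alone. hsp-6 (chromosome V, 4824124 to 4826760, reverse strand), which encodes mitochondrial Hsp70, was nearest to the rule. It was at 142 FPKM with and 116 FPKM without atp-2 RNAi under the hda-1 RNAi label, against 242 FPKM with and 107 FPKM without it on L4440, with hda-1 RNAi over L4440 at -0.76 with and 0.11 without atp-2 RNAi. timm-23 and tin-44, both of the inner membrane import machinery, had differences of -0.72 and -0.76. hsp-60, the mitochondrial chaperonin, was at 47 FPKM with and 28.5 FPKM without atp-2 RNAi under the hda-1 RNAi label, against 49.3 FPKM with and 17.9 FPKM without it on L4440, a difference of -0.71. Here the stressed levels were near equal and the unstressed level was higher with the hda-1 RNAi label, by 0.64. spg-7, a mitochondrial protease gene, was at 25.4 FPKM with and 16.8 FPKM without atp-2 RNAi under the hda-1 RNAi label, against 30.5 FPKM with and 12.2 FPKM without it on L4440, with the same order of columns. The remaining differences were -0.63 for dnj-10, -0.56 for phb-2, -0.55 for tomm-40, -0.53 for Y22D7AL.10, -0.52 for timm-17B.1, -0.44 for phb-1 and between -0.40 and 0.10 for the others. Those others included atfs-1, the transcription factor of the response (-0.08), ppgn-1, lonp-1, ymel-1, tomm-22, clpp-1, haf-1, gpd-2, tomm-20, sod-2 and ubl-5.

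A list of qPCR genes held those that the study picked from enriched terms of these samples, and hsp-6, a UPRmt marker measured apart from them. Other genes followed by qPCR are not in the list. Of its 12 genes, 5 were members, all with a negative difference (cyp-33C8, cdr-4, djr-1.2, ipla-3 and nhr-115), and the median over the 12 was -0.82. Apart from hsp-6 the genes were chosen by the study on these samples, so that the direction of the list is not independent evidence. djr-1.2, a DJ-1 homologue, was at 3.21 FPKM with and 4.07 FPKM without atp-2 RNAi under the hda-1 RNAi label, against 7.2 FPKM with and 1.39 FPKM without it on L4440, with a counting error of 0.35 on a difference of -2.05. The other 7 lay between -0.87 and -0.52, among them the ABC transporter gene pgp-1 (-0.74), hmgs-1 of the mevalonate pathway (-0.77), the threonyl-tRNA synthetase gene tars-1 (-0.61), M04C3.2 (-0.61) and the copper transporter gene cua-1 (-0.52).

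Members lay on every nuclear chromosome and most often on V. Chromosome V held 189 members of 2631 kept genes (7.18%) and 110 of 1857 coding genes with 5 FPKM (5.92%, against 3.29% over all of them), while chromosome III held 56 of 2112 (2.65%). None of the 14 kept mitochondrial genes was a member. There were 12 runs of 3 or more members within 10 kb of one another. Kept genes that were not members could lie within a run, and no expected number of runs was computed. Positions are those of the WBcel235 annotation. On chromosome II, 9798277 to 9807569, cyp-13A5, cyp-13A6, cyp-13A7 and cyp-13A8 were all negative, with differences of -2.0, -1.62, -1.44 and -1.08, and were the 4 kept genes of the span. On chromosome V, 7521900 to 7529450, the 5 kept genes C54F6.15, C54F6.6, C54F6.18, C54F6.17 and C54F6.5 were all negative, with differences from -4.47 to -1.70. Also on chromosome V, 12932941 to 12950248, the 5 kept genes T16G1.7, T16G1.6, T16G1.5, T16G1.4 and T16G1.13 were negative, with differences from -2.99 to -1.38. T16G1.13, with 291 nt of exon, was low throughout, with a counting error of 0.61. It was at 0 FPKM with and 0.552 FPKM without atp-2 RNAi under the hda-1 RNAi label, against 1.66 and 0.591 FPKM on L4440. Only uniquely mapped reads were kept, and how much sequence the genes of a run share was not tested, so they are not counted as independent of each other.

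A run on chromosome V, 14082753 to 14110051, was mixed, with 6 members among 12 kept genes of the span. D1086.10 and D1086.7 were positive, with differences of 1.22 and 1.11, while him-5, D1086.2, D1086.9 and H39E23.3 were negative, at -1.17, -1.03, -4.06 and -2.93. The remaining runs had 3 members each. In 3 of them the span held 3 kept genes, all of them members. These were sri-36, F33H12.7 and sri-39 (all negative), cyp-33C8, R08F11.4 and H10D18.1 (all negative), and the non-coding W06B11.11, F49E10.17 and F49E10.18. The others also spanned kept genes that were not members. They were klf-3, F54H5.11 and T19D12.4 (all negative, 7 kept genes) and nspe-6, nspe-2 and nspe-5 (1 negative, 6 kept genes). Further ones were col-107, C34H4.2 and Y41D4B.17 (all negative, 6 kept genes) and F47B8.2, F47B8.16 and F47B8.4 (all negative, 4 kept genes). The last was the non-coding K11C4.8, K11C4.10 and K11C4.12 (7 kept genes).

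The dve-1 RNAi columns, read against the same L4440 columns, are given beside the hda-1 values. dve-1 encodes a homeodomain protein of the UPRmt. Under the same rule 752 genes had a difference of 1 or more in size for dve-1 RNAi, of 13337. The 2 interactions share both L4440 columns, so any likeness between them is partly built in, and no overlap is given. For the 62 negative coding members of the stressed only class the median was 6.35 FPKM with and 11.3 FPKM without atp-2 RNAi under the hda-1 RNAi label, and 15 FPKM with and 13.4 FPKM without it in dve-1 RNAi. For the 65 of the unstressed only class it was 14.1 and 15.5 FPKM under the hda-1 RNAi label, and 5.69 FPKM with and 5.70 FPKM without atp-2 RNAi in dve-1 RNAi. cdr-4 was at 624 FPKM with and 467 FPKM without atp-2 RNAi in the dve-1 RNAi columns, its difference being -2.18 for dve-1 and -2.20 for hda-1. hsp-70 was at 111 FPKM with and 126 FPKM without atp-2 RNAi in the dve-1 RNAi columns, with differences of -1.68 for dve-1 and -1.48 for hda-1. acdh-1 was at 385 FPKM with and 298 FPKM without atp-2 RNAi in the dve-1 RNAi columns, with 0.39 for dve-1 and 1.33 for hda-1, and acdh-2 at 45.4 FPKM with and 142 FPKM without atp-2 RNAi in the dve-1 RNAi columns, with -0.30 and 1.44 in the same order.

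Some marker genes of cell types, and the core histone genes, also differed between the backgrounds. The 70 kept sperm genes summed to 98.8 FPKM with and 95.6 FPKM without atp-2 RNAi under the hda-1 RNAi label, with 32 and 36 of them at 0, against 775 FPKM with and 629 FPKM without it on L4440, with 1 and 0 at 0. Of these genes 5 were negative members and 1 was positive, and msp-79 and msp-31, major sperm protein genes, had differences of -1.48 and -1.22. msp-79 was listed at 0 in both hda-1-labelled columns, so its difference is its L4440 ratio of 1.48 with the sign reversed. msp-31 was at 0.674 FPKM with and 2.91 FPKM without atp-2 RNAi under the hda-1 RNAi label. The 34 core histone genes, whose copies within a histone type are near-identical, are no marker of a cell type. They summed to 1584 and 1771 FPKM under the hda-1 RNAi label with and without atp-2 RNAi, against 818 and 884 FPKM on L4440. Multi-mapped reads were dropped, so these sums can miss reads from such copies. Of the core histone genes 3 were positive and 1 negative. The 10 female germ line genes summed to 198 and 133 FPKM under the hda-1 RNAi label with and without atp-2 RNAi, against 151 and 106 FPKM on L4440, none at 0 in a strain whose mutation limits the germ line. None of these 10, of 5 intestinal, 7 muscle and 5 neuronal markers was a member. With 4.79% members among all kept genes, that carries little weight for so few genes. Their median log2 ratio of hda-1 RNAi over L4440 with and without atp-2 RNAi was 0.66 and 0.60 for neuronal markers. It was 0.33 and 0.20 for muscle, 0.17 and 0.12 for intestinal and 0.12 and 0.12 for female germ line genes, against 0.13 and 0.16 for all kept genes. In whole worms fewer cells of a type and less RNA per cell cannot be told apart, and the part of such shifts in the other members was not tested. Leaving the sperm and core histone lists out left 216 positive and 413 negative members. That count only subtracts the members of these lists, so it says nothing of such shifts in other genes.

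At the edge of the rule, clec-190 (1.0006) and fbxa-76 (-1.0008) lay just inside, and B0250.3 (0.9999) and K04G2.7 (-0.9976) just outside. The number of members rests on the pseudocount, being 1274 with 0.1 FPKM and 300 with 5 FPKM, and on the filter, being 310 at a mean of 5 FPKM or more, and negative members outnumbered positive ones in each case.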

How the data were processed

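Messenger RNA of whole Caenorhabditis elegans was sequenced in 12 libraries, 2 for each of 6 groups. Reads were mapped by the authors with TopHat2 2.1.1 (genome build ce11), multi-mapped reads were dropped, and Cufflinks gave the gene levels. The deposited values are FPKM, 1 combined value per gene and group. No count, no value per library and no bound is in the table, and strandedness is not given in the sources used here. The labels give the strain glp-4(bn2), while the study's text speaks of wild-type worms. The study's mRNA sequencing methods also give another timing for the second RNAi than the 30 h of the labels.

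Gene positions and types came from Ensembl release 115 (WBcel235, the assembly of ce11), which held the identifiers of 45990 of 46245 genes. Ratios are log2(FPKM + 1), which understates those of low genes. Because a group had 1 value, no test, p-value or interval over replicates was computed. Depth was estimated from the first step of FPKM times exon length in genes with 1000 to 1500 nt of exon, and counting errors were propagated from it over the 4 columns. Lists (41 families and pathways), members and thresholds were chosen with earlier results of these data known. Named were the 3 RNAi targets, all genes of the UPRmt and qPCR lists and, among coding members with 300 nt of exon and 5 FPKM, the 10 largest differences per direction, the 5 largest per class and direction, up to 4 per list, and the members of runs. Genes outside the rule are said to be so. Not every gene the rule named is given with values. Alternatives were the pseudocount, the filters, median-of-ratios and upper-quartile scaling, the gene type and the size of a called level. The procedure was tested on simulated fragments for genes with 300 nt of exon or more and a mean of 5 FPKM or more. The simulation held counting noise alone and placed changes in the hda-1-labelled columns alone. It therefore does not cover short or low genes, changes in the L4440 columns or the spread between cultures. Python 3.11.15, pandas 2.3.3 and numpy 2.4.6 were used. Promoter sequences were not used here.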

Additional observations from a re-analysis of the deposited data

Results flagged for a closer look

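In 4 coding members the level with atp-2 RNAi was 2-fold or more lower than without it under the hda-1 RNAi label and 2-fold or more higher than without it on L4440, so that both groups moved in opposite ways. The difference was not tested, since each group has 1 combined value. clx-1 was at 6.77 FPKM with and 15.7 FPKM without atp-2 RNAi under the hda-1 RNAi label, against 7.18 FPKM with and 0.836 FPKM without it on L4440, a difference of -3.26. H39E23.3 was at 8.43 FPKM with and 21.5 FPKM without atp-2 RNAi under the hda-1 RNAi label, against 419.8 FPKM with and 131 FPKM without it on L4440, a difference of -2.93. F55B12.10 was at 4.22 FPKM with and 13.9 FPKM without atp-2 RNAi under the hda-1 RNAi label, against 19.4 FPKM with and 6.71 FPKM without it on L4440, a difference of -2.92. F56D6.9, which is outside the rule for named genes and was named after its values were seen, was at 26.2 FPKM with and 75.6 FPKM without atp-2 RNAi under the hda-1 RNAi label, against 1585 FPKM with and 754 FPKM without it on L4440, a difference of -2.56. In the dve-1 RNAi columns the levels were 7.44 FPKM with and 6.45 FPKM without atp-2 RNAi for clx-1, 822 and 1392 FPKM for H39E23.3, 12.4 and 13.1 FPKM for F55B12.10, and 1091 and 1471 FPKM for F56D6.9.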

How the results depend on the processing

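Counts of members moved most with the handling of low values. With a pseudocount of 0.1 FPKM there were 474 positive and 800 negative members, and 285 differed in the unstressed level alone. With 5 FPKM these were 106, 194 and 92, and 102 differed in the stressed level alone. Without a filter 333 were positive, and 312 differed in the stressed and 288 in the unstressed level alone. At a mean FPKM of 5 or more the counts were 93 positive, 217 negative, 89 stressed and 75 unstressed, and among protein-coding genes with 300 nt of exon or more they were 118 positive, 119 stressed and 114 unstressed; both settings test fewer genes. Elsewhere the counts were within 1.5 times of 220, 419, 206 and 188. Of the 639 members 607 were also members after median-of-ratios scaling and 585 after upper-quartile scaling. The scaling moved the median log2 ratio of hda-1 RNAi over L4440 without atp-2 RNAi to -0.02 and -0.03, against 0.16 as deposited. Among 132 named members 131 kept their direction with 0.1 FPKM and all 132 with 5 FPKM and under both scalings, but 82 kept a difference of 1 or more with 5 FPKM. The 2 scalings moved the median difference over all kept genes only from -0.04 to -0.01 and 0.03. Genes chosen for a difference of 1 or more in size could therefore hardly reverse under them. The size was less stable: 29 of the 132 differences moved by more than 1.5 times with 0.1 FPKM and 62 with 5 FPKM, against 0 under both scalings. The exception was nspe-6, at -0.21 with 0.1 FPKM, a gene with 0 FPKM in 1 column. No list whose median lay 0.2 or more from that of all genes changed sign. No paired analysis was possible because each group has 1 combined value, and leaving out a library was not possible either. Promoter motifs were not run, since no sequence was used.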
